A study of Oryctolagus cuniculus with 15 samples.

Results

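DRD1, GPR162 and CST7 are 3 of the 23428 genes measured by bulk RNA-seq in normal rabbit keratocytes (NRKs), the resident cells of the corneal stroma, and 15408 of those genes carry a symbol. They were picked by gene symbol because they rose in 3D collagen matrices over both 2D formats, so their levels and their fold changes in 3DF vs. 2DC, 3DF vs. 2DF and 2DF vs. 2DC are a description with no test. The 15 libraries came from first-passage NRKs of New Zealand white rabbit eyes kept for 6 days without serum, with 3 libraries for each of 5 conditions. In 2DC the cells sat on dishes coated with type I collagen, and 2DC_L was the same culture lysed directly in the dish. In 2DF they sat on top of a fibrillar bovine collagen matrix. In 3DF they were embedded in that matrix at 100000 cells per matrix, and in 3DF_50 at 50000. All conditions except 2DC_L passed through a short incubation in collagenase-containing digestion medium before lysis. Each library was made from several pooled dishes or matrices, and the replicates are described as separate experiments. Between 14626982 and 31804255 reads were counted per library.

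DRD1 encodes a dopamine receptor that couples to stimulatory G proteins and raises cyclic AMP, and it is best known from the striatum and from vascular and renal cells. Dopamine and its relatives noradrenaline and adrenaline act on a family of such receptors, and protein kinase A and the transcription factor CREB carry the cyclic AMP signal further. GPR162 encodes an orphan member of the rhodopsin-like receptor family, with no established ligand. CST7 encodes cystatin F, an inhibitor of cysteine cathepsins that is usually described in leukocytes, where it acts on cathepsin C.

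DRD1 was close to the detection limit in 2D culture and clearly counted in 3D. Its level in FPKM, which corrects the counts for exon length and library size, was 0.0369, 0.217 and 0.0392 in the 2DC libraries and 0.158, 0.0614 and 0.131 in the 2DC_L libraries. The 2DF libraries had 0.235, 0.528 and 0.125 FPKM. The 9 libraries of the 2D conditions rested on 4 to 43 counts each, few enough that counting error alone is sizeable. In 3DF the values were 2.92, 2.79 and 2.22 FPKM, from 207 to 338 counts, and in 3DF_50 they were 2.10, 1.03 and 1.55 FPKM, from 88 to 171 counts. The mean rose from 0.0975 ± 0.103 FPKM in 2DC, 0.117 ± 0.0496 in 2DC_L and 0.296 ± 0.208 in 2DF to 1.56 ± 0.536 in 3DF_50 and 2.64 ± 0.372 in 3DF (SD, n = 3 each). The 2D conditions overlapped each other, whereas 2DF did not overlap 3DF_50. Conditions 3DF_50 and 3DF did not overlap either, but DRD1 was not a DEG between them, and the share of all genes without overlap there was not counted. Even in 3DF, 55.5% of the genes with a symbol had a higher mean FPKM than DRD1.

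GPR162 was the most abundant of the 3 genes in every condition. It stood at 4.15, 3.30 and 1.94 FPKM in 2DC, at 2.88, 2.66 and 3.02 in 2DC_L and at 2.88, 4.05 and 1.26 in 2DF, from 55 to 307 counts. In 3DF it stood at 33.4, 40.4 and 39.3 FPKM and in 3DF_50 at 28.2, 18.6 and 26.6, from 866 to 2303 counts. All 9 libraries of the 2D conditions therefore lay between 1.26 and 4.15 FPKM, and all 6 libraries of the 3D conditions lay far above that range. Condition means were 3.13 ± 1.12 FPKM in 2DC, 2.85 ± 0.183 in 2DC_L, 2.73 ± 1.40 in 2DF, 24.4 ± 5.15 in 3DF_50 and 37.7 ± 3.80 in 3DF (SD, n = 3 each). The order of the 2D means carries no weight, since their libraries overlapped. Conditions 3DF_50 and 3DF did not overlap, but GPR162 was not a DEG between them, and the share of all genes without overlap there was not counted. In 2DC 53.7% of the genes with a symbol had a higher mean than GPR162, and in 3DF 9.63% did.

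CST7 also separated the 3D from the 2D libraries, while its 3DF and 3DF_50 libraries overlapped. Its values were 2.10, 0.571 and 0.620 FPKM in 2DC, 0.673, 0.769 and 0.207 in 2DC_L and 0.261, 1.04 and 0.591 in 2DF. They were 6.56, 6.51 and 6.22 FPKM in 3DF and 8.10, 4.37 and 5.64 in 3DF_50. 1 library, 2DC replicate 1 with 54 counts, stood apart from the other 8 libraries of the 2D conditions, which had 3 to 19 counts, and the 3D libraries had 71 to 144 counts. Condition means were 1.10 ± 0.869 FPKM in 2DC, 0.550 ± 0.300 in 2DC_L, 0.629 ± 0.389 in 2DF, 6.04 ± 1.89 in 3DF_50 and 6.43 ± 0.184 in 3DF (SD, n = 3 each). The 3DF values lay inside the range of the 3DF_50 values.

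**Figure D1:**
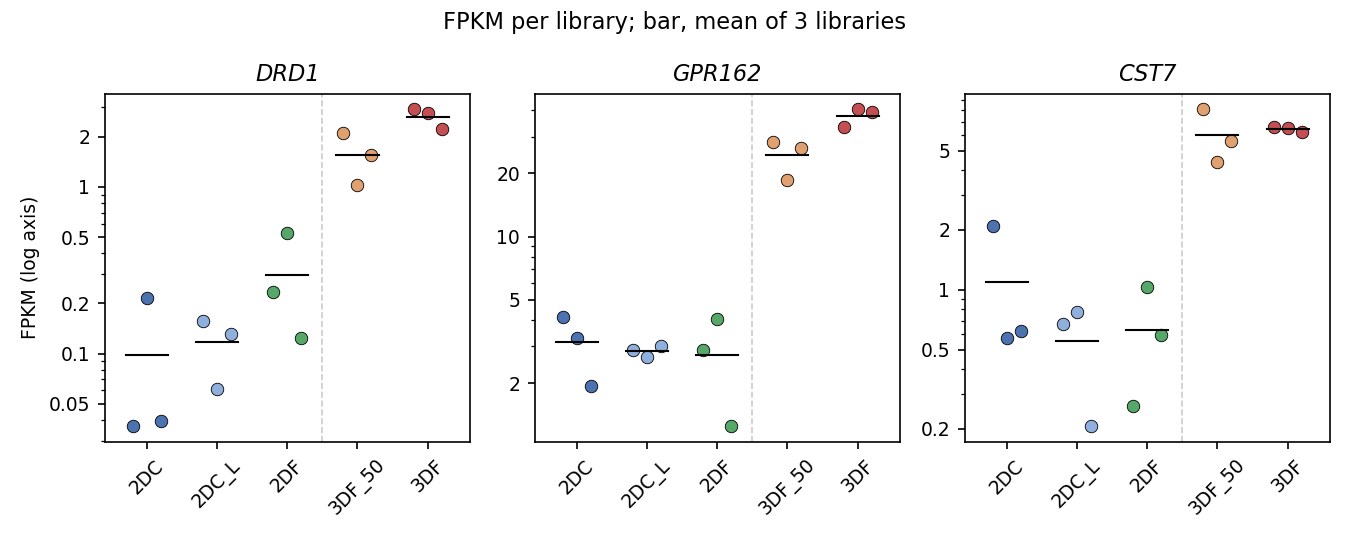
FPKM of DRD1, GPR162 and CST7 in each of the 15 libraries on a log axis, by condition, with a bar at the mean of 3 libraries. Points left of the dashed line are 2D conditions, and in each panel the 6 points of the 3D conditions lie above the 9 points of the 2D conditions.

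For all 3 genes, every 3DF and 3DF_50 library lay above every 2DC, 2DC_L and 2DF library. Of the 14845 genes with a mean of at least 0.1 FPKM, 455 did so (3.07%), and since the genes were chosen for this direction nothing is read from the count. The genes differed in how wide the gap was. The lowest 3D library of GPR162 had 4.47 times the FPKM of its highest 2D library, the widest such gap among the 410 separated genes with a symbol. The ratio was 2.08 for CST7 (rank 17) and 1.95 for DRD1 (rank 18). In bulk RNA, more cells expressing a gene and more RNA of that gene per cell cannot be told apart.

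The fitted changes in the comparisons that chose the genes were large for all 3. In 3DF vs. 2DC the log2 fold change was 4.79 (SE 0.52) for DRD1, 3.57 (SE 0.26) for GPR162 and 2.49 (SE 0.46) for CST7. In 3DF vs. 2DF it was 3.16 (SE 0.40), 3.79 (SE 0.33) and 3.34 (SE 0.39), in the same order. Across all genes, 3.24% of those fitted were higher differentially expressed genes (DEGs, with an edgeR adjusted p no larger than 0.05 and a |log2 fold change| no smaller than 1) in 3DF vs. 2DC, and 2.09% in 3DF vs. 2DF. In 2DF vs. 2DC, where the collagen is fibrillar but the cells stay on a surface, the values were 1.63 (SE 0.75), -0.20 (SE 0.40) and -0.83 (SE 0.65). That comparison gave the genes different signs, and GPR162 turned to 0.063 without 2DC replicate 1 and to 0.15 without 2DF replicate 3. Single 2D libraries set the size of some of these changes. Without 2DC replicate 2 the change of DRD1 was 6.07 in 3DF vs. 2DC and 2.93 in 2DF vs. 2DC, and without 2DC replicate 1 the change of CST7 in 3DF vs. 2DC was 3.41. Without 2DF replicate 2 the changes of DRD1 and CST7 in 3DF vs. 2DF were 3.87 and 3.90.

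**Figure D2:**
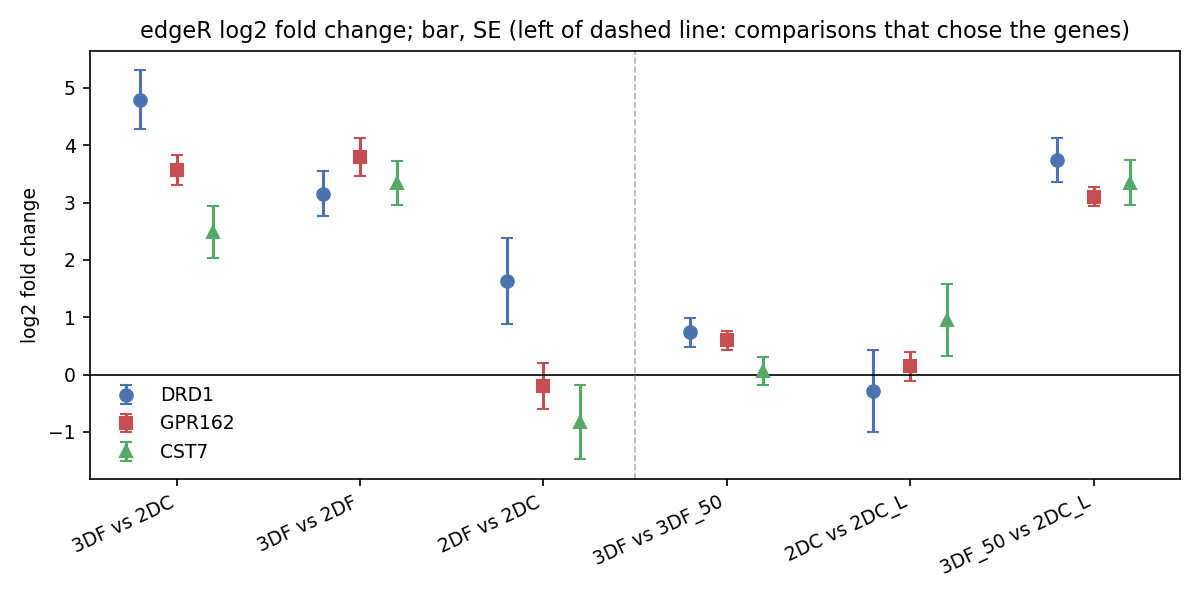
log2 fold change from edgeR of DRD1, GPR162 and CST7 in 6 comparisons, with the SE as bars, from 3 libraries a condition. All 3 genes lie between 2.49 and 4.79 where 3DF is set against a 2D condition and between 3.10 and 3.74 in 3DF_50 vs. 2DC_L, whereas the changes with density or digestion lie between -0.29 and 0.95.

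Conditions 3DF_50 and 2DC_L are not named in the choice of the genes, but the choice covered all 5 conditions and named 3D without a density. The values of the 3 genes in 3DF_50 vs. 2DC_L are therefore a description too and give no independent support. All 3 genes rose in 3DF_50 vs. 2DC_L, a comparison in which 5.05% of 13321 genes were higher DEGs. The log2 fold change was 3.74 (SE 0.39, 95% interval 2.88 to 4.61) for DRD1. For GPR162 it was 3.10 (SE 0.16, 2.74 to 3.46), and for CST7 it was 3.35 (SE 0.40, 2.46 to 4.24). On the linear scale these were 13.4-fold, 8.60-fold and 10.2-fold differences. The conditions differ in the 3D position of the cells, in the fibrillar matrix and in the digestion step. The paper also names the stiffness of the substrate and a lower effective cell density in 3D. These cannot be told apart in this comparison.

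Cell density within 3D matrices was read from 3DF and 3DF_50. The 3DF values entered the choice of the genes, which can favour 3DF over 3DF_50. The values and p-values of the 3 genes here are therefore a description and give no independent support. DRD1 was higher at the larger density by a log2 value of 0.74 (SE 0.25, 95% interval 0.17 to 1.30) and GPR162 by 0.60 (SE 0.17, 0.22 to 0.98). None of the 3 genes was a DEG by edgeR or DESeq2, where 0.452% of 13285 genes were DEGs by edgeR. The edgeR adjusted p was 0.165 for DRD1 and 0.117 for GPR162, with unadjusted values of 0.0154 and 0.00561 in the same order, and 20.0% of all genes had an unadjusted p under 0.05. DESeq2 gave GPR162 an adjusted p of 0.0332, below the limit on the fold change. CST7 differed by 0.067 (SE 0.24, -0.48 to 0.61; edgeR adjusted p = 0.897), an interval that includes the estimate for GPR162. The difference in density response between the genes was not tested.

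The digestion step was read from 2DC and 2DC_L, where 0.265% of 13608 genes were DEGs by edgeR. The 2DC values entered the choice of the genes too, so the values of the 3 genes are again a description. None of the 3 genes was among them by edgeR or DESeq2, and none had an unadjusted p under 0.05. GPR162 differed by 0.14 (SE 0.25, 95% interval -0.44 to 0.73; edgeR adjusted p = 0.971). DRD1 differed by -0.29 (SE 0.72, -1.95 to 1.37; adjusted p = 0.981) and CST7 by 0.95 (SE 0.62, -0.48 to 2.39; adjusted p = 0.916), both with wide intervals and few counts. The CST7 value rested on 2DC replicate 1, without which it was 0.032, and the sign of the DRD1 value turned without 2DC replicate 1 or 3 or 2DC_L replicate 1 (0.14, 0.061 and 0.054).

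Library names carry prefixes that some 2D and 3D libraries share, and what a prefix stands for is not stated. Of the 2D and 3D libraries, 6 pairs share a prefix, and 4 prefixes are involved. Within these pairs the 3D library had 6.44 to 17.2 times the FPKM of the 2D library for GPR162, 4.37 to 74.6 times for DRD1 and 10.5 to 31.5 times for CST7. Every pair went up for every gene, which was fixed in advance, since every 3D library lay above every 2D library. With prefix E7, which holds 3DF replicate 2 and 3DF_50 replicate 3, the ratio of 3DF to 3DF_50 was 1.79 for DRD1, 1.52 for GPR162 and 1.16 for CST7. Conditions 3DF and 2DF share no prefix, so that prefix and condition cannot be told apart within that comparison.

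**Figure D3:**
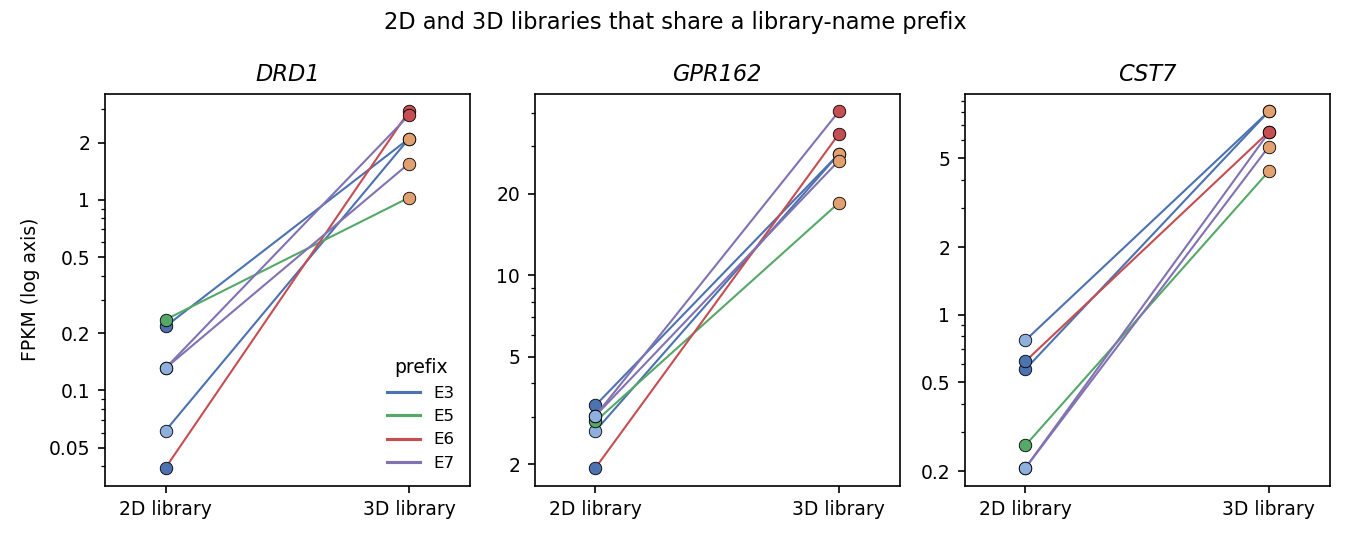
FPKM on a log axis of 2D and 3D libraries that share a prefix in their names, with 1 line per pair (6 pairs, some sharing a library) coloured by prefix and points coloured by condition (dark blue 2DC, light blue 2DC_L, green 2DF, orange 3DF_50, red 3DF). Every line has to rise, since every 3D library lies above every 2D library. The rise is 4.37 times at the least for DRD1, 6.44 for GPR162 and 10.5 for CST7.

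Over the 15 libraries the log2(FPKM + 1) values of the 3 genes followed each other. Pearson's r was 0.966 for DRD1 and GPR162, 0.959 for GPR162 and CST7, and 0.920 for DRD1 and CST7. The libraries share 5 conditions, so that the step from 2D to 3D carries most of these values. After the condition means were removed, r was 0.61, 0.49 and 0.36 in the same order.

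Among 9689 genes with a symbol and a mean of at least 1 FPKM, the genes most like DRD1 over the 15 libraries were ABHD17C (r = 0.982), PLPP1 (0.982), PLPP3 (0.975), HADH (0.970) and SIPA1L2 (0.967). ABHD17C is a depalmitoylase, PLPP1 and PLPP3 are lipid phosphate phosphatases, and HADH is a mitochondrial enzyme of fatty acid oxidation. GPR162 ranked 6th for DRD1 and DRD1 ranked 6th for GPR162. The genes most like GPR162 were SIPA1L2 (0.982), TST (0.980), EGFR (0.977), HADH (0.972) and PLPP1 (0.967), so that SIPA1L2, HADH and PLPP1 stood in both lists. EGFR is the receptor of epidermal growth factor and TST a mitochondrial sulfurtransferase. For CST7 they were CMBL (0.976), GPR162 itself (0.959), EGFR (0.958), NFKBIA (0.952) and COLEC12 (0.951). These genes moved less than the 3: EGFR went from 31.3 FPKM in 2DC and 32.0 in 2DF to 56.4 in 3DF_50 and 58.7 in 3DF, and SIPA1L2 from 1.71 and 1.57 to 4.90 and 6.83.

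Of 17 genes of catecholamine synthesis and clearance, which supply or remove the ligands of DRD1 and its relatives, 13 were in the table and 5 had enough counts to be fitted. By edgeR 0 of these 5 were DEGs in 3DF vs. 2DC, 3DF vs. 2DF or 3DF_50 vs. 2DC_L, also by DESeq2, with 2, 1 and 1 at an unadjusted p under 0.05. The most abundant were QDPR, SPR and PTS, which make or recycle the cofactor of the synthesis, with condition means of 54.2 to 68.6, 6.69 to 8.24 and 4.17 to 7.05 FPKM. DDC, which makes dopamine from its precursor, had condition means of 0.0195 to 0.0633 FPKM and at most 6 counts in a library. These 4 genes were singled out after their values were seen. TH, the rate-limiting enzyme, was not analysed here.

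Of the dopamine receptors analysed here, DRD1, DRD2, DRD3 and DRD5, only DRD1 had a 3D level above its 2D level in all libraries, and it was chosen for its rise in 3D. DRD2, the inhibitory counterpart, stood between 0.171 and 0.898 FPKM, with log2 fold changes of -0.12 (SE 0.34) in 3DF vs. 2DC and -0.39 (SE 0.62) in 3DF vs. 2DF (edgeR adjusted p = 0.847 and 0.747). DRD3 and DRD5, the latter the closest relative of DRD1, had 0 counts in all 15 libraries. DRD4 was not analysed here.

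ADRA1B and ADRA1A, adrenergic receptors that couple to calcium-mobilising G proteins, fell in 3DF vs. 2DC. ADRA1B had 5.33, 4.08 and 5.06 FPKM in 2DC, 4.85, 6.37 and 12.0 in 2DF and 0.990, 1.54 and 0.765 in 3DF, with no overlap between 3DF and either 2D condition. It fell by 2.14 (SE 0.28) in 3DF vs. 2DC and by 2.81 (SE 0.38) in 3DF vs. 2DF (edgeR adjusted p = 0.0016 and 0.00241). ADRA1A fell by 3.26 (SE 0.40, adjusted p = 0.00124) in 3DF vs. 2DC, from 4.25, 5.67 and 2.23 to 0.399, 0.378 and 0.495 FPKM. In 2DF it was already at 0.488 ± 0.32 FPKM, and 3DF vs. 2DF gave -0.20 (SE 0.54, adjusted p = 0.862). These calls kept their direction under each scaling tried. ADRA2A did not pass the test in either comparison, and ADRA1D had 0 counts in all 15 libraries. The list of catecholamine receptors is reported in part only, so that no count over it is given.

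**Figure D4:**
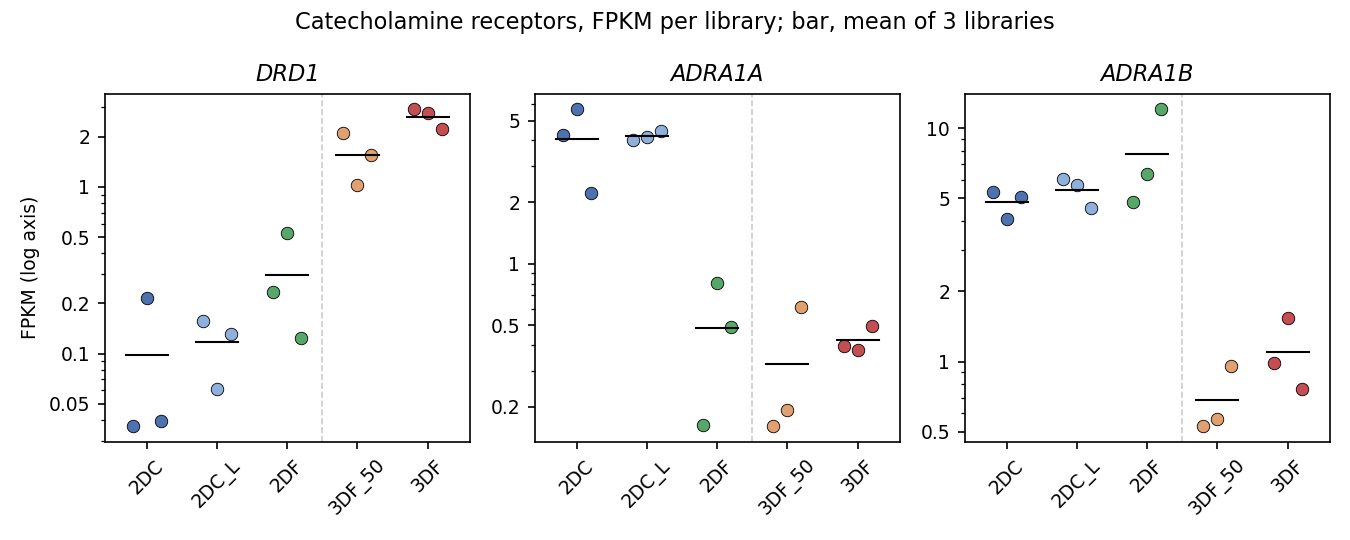
FPKM on a log axis of DRD1, ADRA1A and ADRA1B in each of the 15 libraries, by condition, with a bar at the mean of 3 libraries. DRD1 is highest in 3DF (mean of 2.64), ADRA1B drops in both 3D conditions, and ADRA1A is low in all conditions with fibrillar collagen.

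Downstream of the receptor, the DEGs of the G protein, cyclic AMP and protein kinase A list differed with the comparison. Of 49 fitted, 3DF vs. 2DC had 1 higher and 1 lower, while 3DF vs. 2DF had 4 higher and 2 lower, where 7.56% and 3.78% of all genes were DEGs in either direction. In 3DF_50 vs. 2DC_L 0 of 48 were higher and 4 were lower by edgeR, with 5 called by DESeq2 and 25 at an unadjusted p under 0.05, beside 13.5% of all genes. These 4 were PRKAR2B and, named after their values were seen, RAPGEF4, GNB4 and CREB5, the last pair no longer DEGs with scaling by library size only. ADCY5, an adenylyl cyclase that is prominent where DRD1 acts in the striatum, was the one higher in both. It had 1.43, 1.29 and 1.18 FPKM in 2DC, 1.21, 1.85 and 0.906 in 2DF and 3.48, 4.63 and 2.06 in 3DF. Its changes were 1.37 (SE 0.28, edgeR adjusted p = 0.0132) and 1.36 (SE 0.34, adjusted p = 0.0407). The first call was lost without 2DC replicate 2 or 3, the second without 2DF replicate 1 or 3 or 3DF replicate 1 or 2, and in 3DF_50 vs. 2DC_L the value was 0.69 (SE 0.33, adjusted p = 0.114).

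The other DEGs of that list included genes of G proteins, cyclases, phosphodiesterases and protein kinase A. PRKAR2B, a regulatory subunit of protein kinase A, fell in 3DF vs. 2DC by 1.27 (SE 0.29; adjusted p = 0.0191 by edgeR), a call lost without 2DC replicate 2 or 3. In 3DF vs. 2DF GNAI1, an inhibitory G protein subunit, rose by 1.38 (SE 0.22), and the cyclic nucleotide phosphodiesterases PDE3A and PDE4B rose by 1.48 (SE 0.21) and 1.11 (SE 0.23). PKIG, an inhibitor of protein kinase A, fell by 1.23 (SE 0.15) and the cyclase ADCY7 by 1.14 (SE 0.26) in the same comparison. The calls of PDE4B and ADCY7 were each lost in 4 of the 6 fits with a library omitted, for PDE4B without any 1 of the 2DF libraries or 3DF replicate 2, and for ADCY7 without 2DF replicate 2 or 3 or 3DF replicate 1 or 3. GNAS, the stimulatory subunit that DRD1 couples to, was singled out after its values were seen. It stood at 283 ± 18 FPKM in 2DC and 299 ± 42 in 3DF, with a change of 0.068 (SE 0.14, adjusted p = 0.775). Of 12 genes of receptor desensitisation, RGS10, which speeds up the switching off of inhibitory G proteins, fell by 1.32 (SE 0.26, adjusted p = 0.0104) in 3DF vs. 2DC, and 0 of 12 were DEGs in 3DF vs. 2DF by edgeR or DESeq2, with 1 at an unadjusted p under 0.05. In the joint fit with the library prefix as a block, where 4 genes were DEGs in 3DF vs. 2DF, the calls in that comparison named here for receptors, cyclic AMP genes and cathepsins were lost, and of the 3 genes DRD1 and CST7 were no longer DEGs, while those in 3DF vs. 2DC were kept.

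Early-response genes that CREB can drive were read against the digestion step. Of 12 fitted, FOS, FOSB, ATF3 and NR4A2 rose in 3DF vs. 2DC, by 1.97 (SE 0.26), 4.34 (SE 0.32), 2.79 (SE 0.42) and 2.09 (SE 0.27). Higher DEGs made up 3.24% of all genes there. In 3DF vs. 2DF 0 of 11 were DEGs by edgeR and 1 by DESeq2, with 3 at an unadjusted p under 0.05, and in 2DF vs. 2DC 5 of 10 were higher (2.04% of all genes). In 2DC vs. 2DC_L 5 of 11 were higher (0.257% of all genes), and FOS stood at 0.311, 0.251 and 0.343 FPKM in 2DC_L against 237, 275 and 214 in 2DC. In 3DF_50 vs. 2DC_L, which also differ in the digestion step, 8 of 10 were higher (5.05% of all genes). The means in 2DC and 2DC_L were 0.0975 and 0.117 FPKM for DRD1, 3.13 and 2.85 for GPR162, and 1.10 and 0.550 for CST7. A link between these 3 genes and the early-response genes was not tested.

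GPR162 was compared with the other orphan and GPR-named receptors. Of 25 fitted beside it, 1 was higher in 3DF vs. 2DC, 2 were higher in 3DF vs. 2DF and 0 were lower in either by edgeR, where 7.56% and 3.78% of all genes were DEGs in either direction. At an unadjusted p under 0.05 there were 13 and 8 of the 25, and DESeq2 called 2 and 2. In 3DF_50 vs. 2DC_L 1 of 24 was higher and 5 were lower, beside 13.5% of all genes. In the comparisons with 3DF the higher genes were GPRC5A and GPRC5B, receptors of the class that retinoic acid induces. GPRC5A rose from 1.47 ± 0.11 FPKM in 2DC and 3.37 ± 0.59 in 2DF to 6.97 ± 2.1 in 3DF, by 2.23 (SE 0.25, edgeR adjusted p = 0.000764) and 1.05 (SE 0.25, adjusted p = 0.033). GPRC5B rose by 2.22 (SE 0.46, adjusted p = 0.0199) in 3DF vs. 2DF only as a call, with 0.66 (SE 0.35, adjusted p = 0.252) in 3DF vs. 2DC. In 3DF vs. 2DF the call of GPRC5A was kept in 1 of 6 fits without a library (that without 3DF replicate 1), and that of GPRC5B was lost without 2DF replicate 1 or 2 or 3DF replicate 3. GPR153, a close relative of GPR162 chosen here after its values were seen, had 24.1 to 29.7 FPKM in 2DC, 22.7 to 30.8 in 2DF and 43.7 to 49.6 in 3DF. In 3DF_50 vs. 2DC_L GPRC5A rose by 1.61 (SE 0.22), while GPR19, GPR39, GPR63, GPR180 and GPR173, named after their values were seen, fell by 1.82, 1.39, 1.34, 1.13 and 1.10, the last 3 no longer DEGs with scaling by library size only. The median log2 fold change of the list was 0.21 in 3DF vs. 2DC, 0.38 in 3DF vs. 2DF and -0.15 in 3DF_50 vs. 2DC_L, beside 0.012, 0.011 and 0.0040 over all genes.

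Of the 3 cystatins fitted beside CST7, 0 were DEGs in 3DF vs. 2DC or 3DF vs. 2DF by edgeR or DESeq2, with 2 and 0 at an unadjusted p under 0.05. The secreted inhibitor CST3 was far more abundant, with 468 to 552 FPKM in 3DF and 611 to 725 in 2DC, and changed by -0.33 (SE 0.13, edgeR adjusted p = 0.118). CSTB, an intracellular cystatin, had 62.9 to 68.1 FPKM in 2DC, 111 to 155 in 2DF and 78.2 to 124 in 3DF, a change of 0.69 (SE 0.18, adjusted p = 0.0332) in 3DF vs. 2DC that was under the limit on the fold. Whatever the fold, 15.4% of all genes had an adjusted p of 0.05 or less there. CST6 overlapped between all conditions, with -0.13 (SE 0.37, adjusted p = 0.848). CSTA had at most 5 counts in a library, and CST8 had 0 counts in all 15.

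Of 10 cathepsins and legumain, the proteases that cystatins bind, 0 were DEGs in 3DF vs. 2DC by edgeR or DESeq2, with 6 at an unadjusted p under 0.05, as 29.4% of all genes were. There was 1 lower DEG in 3DF vs. 2DF and 1 in 3DF_50 vs. 2DC_L, beside 3.78% and 13.5% of all genes in either direction. CTSC, cathepsin C, had 2.59, 2.58 and 2.21 FPKM in 2DC and 3.82, 4.45 and 3.28 in 3DF. Its change of 0.64 (SE 0.18, edgeR adjusted p = 0.0443) was under the limit on the fold, and it was 0.70 (SE 0.27, adjusted p = 0.165) in 3DF vs. 2DF. CTSK, a collagen-degrading cathepsin, fell by 1.08 (SE 0.17, adjusted p = 0.00479) in 3DF vs. 2DF, from 300 ± 52 to 141 ± 18 FPKM, a call lost without 2DF replicate 1 or 3DF replicate 1. LGMN, legumain, fell by 1.10 (SE 0.14, adjusted p = 0.000199) in 3DF_50 vs. 2DC_L, a call lost without 2DC_L replicate 3 or 3DF_50 replicate 2 and with scaling by library size only.

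The positions of the genes were checked for neighbours that move with them. In oryCun2 DRD1 lies at chr3:56243561-56248219 on the minus strand, GPR162 at chr8:32842305-32847633 on the plus strand and CST7 at chrUn0043:1163046-1174274 on the minus strand. The exons counted span 4615, 2516 and 875 bases, and no annotated gene in the table overlaps any of the 3. Next to DRD1, SFXN1 stood at 39.5 ± 2.20 FPKM in 2DC and 40.8 ± 1.20 in 3DF, and MSX2 at 0.961 ± 0.291 and 0.821 ± 0.331, with neither a DEG. The outer neighbours LOC103347973 and LOC103348006 stayed under 0.01 FPKM in every condition mean.

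GPR162 lies in a gene-dense stretch, 744 bases before P3H3 on the same strand and 2242 bases after CD4. P3H3, a collagen prolyl hydroxylase, was more abundant than GPR162, with 152 ± 16.6 FPKM in 2DC, 89.7 ± 14.7 in 2DF, 81.1 ± 20.2 in 3DF and 50.9 ± 10.1 in 3DF_50, so that its level was lower in 2DF already. Its change in 3DF vs. 2DC, -0.91 (SE 0.20; adjusted p = 0.0165 by edgeR), was under the limit on the fold, and in 3DF vs. 2DF it was -0.14 (SE 0.20, adjusted p = 0.714). CD4 had condition means of 0.150 to 0.372 FPKM, and LAG3 and GNB3 changed by 0.047 and -0.054 in 3DF vs. 2DC.

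Of the neighbours of CST7, SYNDIG1, a transmembrane protein described at synapses, also rose. It lies 198621 bases away on the same strand and had 5.42, 5.58 and 2.95 FPKM in 2DC, 3.24, 4.32 and 3.55 in 2DF and 11.4, 17.5 and 12.7 in 3DF. Against 2DC the rise of SYNDIG1 was 1.57 (SE 0.26) on the log2 scale and against 2DF it was 1.91 (SE 0.20), with edgeR adjusted p-values of 0.00581 and 0.000885. APMAP, which ends 1923 bases from CST7, went from 12.7 ± 2.14 to 7.39 ± 0.579 FPKM, by -0.79 (SE 0.15, adjusted p = 0.0104), under the limit on the fold. ACSS1 changed by -0.17 (SE 0.16, adjusted p = 0.502), and LOC103352538 had 0 FPKM throughout.

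**Figure D5:**
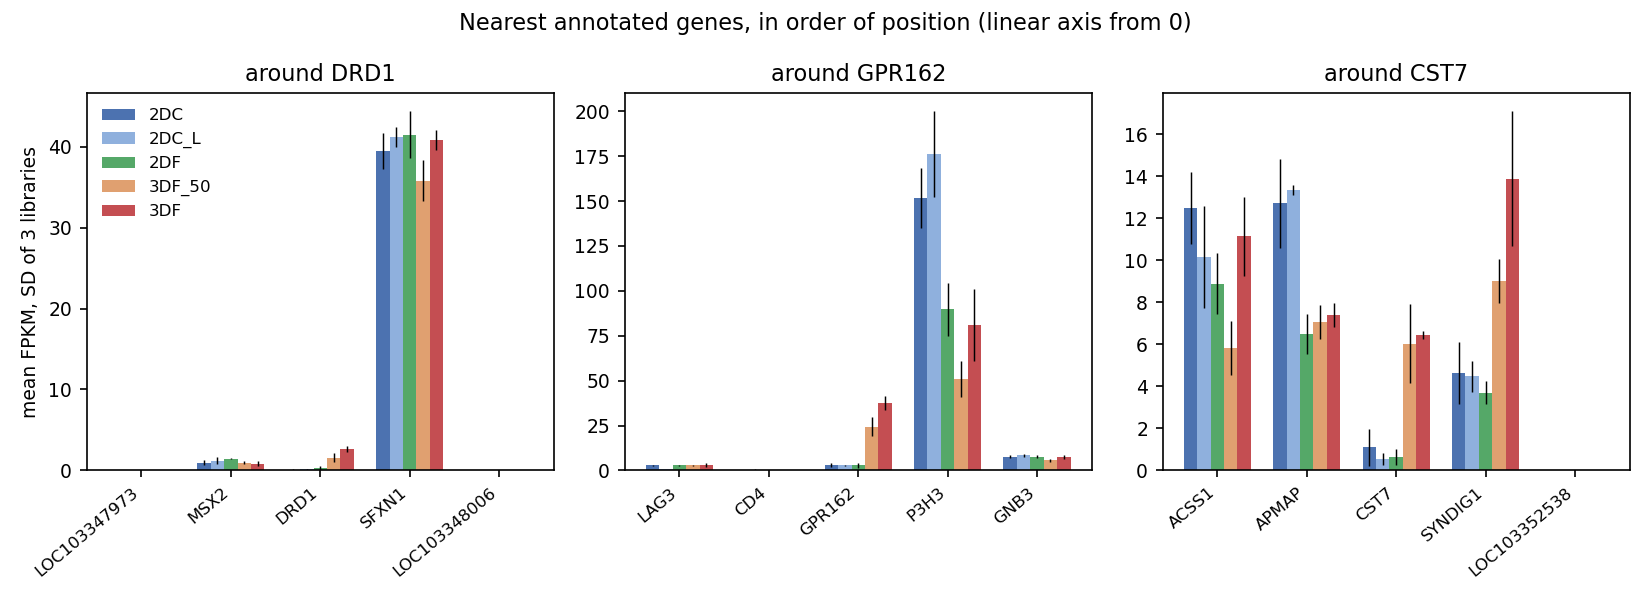
Mean FPKM with the SD of 3 libraries for the nearest annotated genes of DRD1, GPR162 and CST7, in order of position, on linear axes from 0. Beside GPR162 the bars of P3H3 stand at 152 (2DC), 89.7 (2DF) and 81.1 (3DF), and beside CST7 those of SYNDIG1 rise from 4.65 to 13.9.

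Markers of other cell types were set beside the 3 genes. The keratocyte genes KERA and LUM were abundant everywhere, with 1507 to 4555 and 5272 to 12432 FPKM. Leukocyte markers were of interest for CST7. The summed FPKM of the 18 in the table was lower in 3D, at 5.46 to 6.30 in 3DF and 5.12 to 7.04 in 3DF_50, against 7.36 to 13.3 in 2DC, 9.29 to 17.8 in 2DC_L and 8.56 to 13.6 in 2DF. PTPRC, the pan-leukocyte marker, was at 0.133 FPKM or less and at 0 counts in 6 libraries, 3 of them 3D, and CD68 stood between 1.44 and 7.30 FPKM, with its highest values in 2DF. LCP1, named after its values were seen, had condition means of 1.14 to 8.53 FPKM, the most of the list in 2DC and 2DC_L. NKG7, a marker of cytotoxic lymphocytes, went against the sum. It had 4 or 5 counts (0.205 to 0.329 FPKM) in 5 of the 6 libraries of the 3D conditions and 0 in 3DF replicate 1, against 0 to 2 counts (at most 0.133 FPKM) in 2D, too few for it to be fitted.

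Of the corneal epithelium markers, 9 of 10 fitted were higher in 3DF vs. 2DC, beside 3.24% of all genes. The count filter passed only 4 of the list in 2DF vs. 2DC and 3 in 2DC vs. 2DC_L. Most of those fitted with 3DF therefore passed through the 3DF libraries, which favours higher calls, and nothing is read from these counts. Against 2DF, 2 of 12 were higher in 3DF and 1 was lower, beside 3.78% of all genes in either direction. In 3DF_50 vs. 2DC_L 0 of 3 were higher and 1 was lower by edgeR, beside 13.5% of all genes in either direction. DESeq2 called 1, and 1 had an unadjusted p under 0.05 by edgeR. The summed FPKM of the list was 18.0 to 25.7 in 3DF, 2.55 to 17.2 in 3DF_50, 4.44 to 34.5 in 2DC, 9.67 to 17.4 in 2DC_L and 17.6 to 23.4 in 2DF. KRT12, the keratin that defines this epithelium, had 2.47, 4.40 and 3.72 FPKM in 3DF, with 0, 1.26 and 0.250 in 2DF and 0 counts in the 2DC and 2DC_L libraries. In 3DF_50 KRT12 was at 0 counts in replicates 1 and 2 and at 2.13 FPKM in replicate 3. In the same order GPR162 stood at 28.2, 18.6 and 26.6 FPKM, DRD1 at 2.10, 1.03 and 1.55, and CST7 at 8.10, 4.37 and 5.64. The vascular endothelium list summed to 119 to 125 FPKM in 3DF, 54.6 to 79.4 in 3DF_50, and 34.2 to 65.5 over the 2D conditions. Of its 3 genes fitted, 2 were higher in 3DF vs. 2DC (3.24% of all genes) and 2 in 3DF vs. 2DF (2.09%). In 3DF_50 vs. 2DC_L 1 of 3 was higher (5.05%). The corneal endothelium list summed to 260 to 321 FPKM in 3DF and 186 to 215 in 3DF_50, against 481 to 688 over the 2D conditions. The Schwann and neuron list overlapped between 3DF and each 2D condition, at 30.1 to 36.9 FPKM in 3DF. In 3DF_50 that list summed to 24.6 to 31.9 FPKM. These sums lay under 2DC (34.9 to 37.7) and 2DC_L (33.2 to 39.8) but overlapped 2DF (31.6 to 44.5). The part of the lists that moved with 3D in the levels of the 3 genes was not tested.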

How the data were processed

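Bulk RNA-seq of 15 libraries was analysed, 3 for each of 2DC, 2DC_L, 2DF, 3DF and 3DF_50, grouped by their labels. The authors aligned reads to oryCun2 with HISAT2 and counted them per gene with featureCounts. The deposited counts are whole numbers with no further normalization, and the strand setting is not given in the sources used here. The deposited FPKM values are these counts over exon length and over a size per library set by the authors, 0.921 to 1.24 times the summed counts. All columns were used. The 3 genes, the gene lists and the comparisons were chosen with earlier results of these data known.

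Each pair of conditions was fitted on all genes with the quasi-likelihood F test of edgeR 4.0.16 (R 4.3.3; two-sided; TMM scaling; filterByExpr, minimum count 10), and p-values were adjusted over all genes fitted by Benjamini-Hochberg. The limits for DEGs were 0.05 on the adjusted p and 1 on the |log2 fold change|. A test on simulated data for 3DF vs. 2DC changed 200 of 13299 genes by 2 on the log2 scale, and edgeR called 89% of these and 7 others. Errors in FPKM are SDs of 3 libraries. Likeness is Pearson's r of log2(FPKM + 1) without p. Figures were made with Python 3.11.15 and matplotlib 3.10.9.

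The genes named are the 3 genes, the nearest 2 annotated genes on each side, the 5 genes with the highest r to each, list members that are DEGs in 3DF vs. 2DC or 3DF vs. 2DF, other measured catecholamine receptors and cystatins, cathepsin C and 6 cell type markers. Some genes that this rule names are not reported here. Alternatives were DESeq2 1.42.0, DESeq2's size factors, library size only, no filter or a filter at a mean of 1 CPM, a joint fit of the 5 conditions with or without the library prefix, a replicate block, limma 3.58.1 with pseudocounts of 1 and 0.1 FPKM, Spearman's rho, no limit on the fold change, and leaving out each library.

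The deviations of same-numbered libraries from their condition means correlated by over 0.1 in every pair only in 3DF_50 vs. 2DC_L, where r was 0.178, 0.119 and 0.318 for replicates 1, 2 and 3. The pairing comes from the numbers in the labels and from these values, and only replicate 3 shares a prefix, E7. With the replicate block the log2 fold change was 3.76 for DRD1, 3.08 for GPR162 and 3.36 for CST7, and all 3 remained DEGs.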

Additional observations from a re-analysis of the deposited data

How the results depend on the processing

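In 3DF_50 vs. 2DC_L all 3 genes remained DEGs under each alternative that fitted them, the replicate block included. Since the genes were chosen for a rise in 3D, this gives no independent support. With a library left out, the log2 fold changes there were 3.40 to 4.10 for DRD1, 2.99 to 3.27 for GPR162 and 3.05 to 3.62 for CST7. Scaling by library size only moved the median of all genes to 0.36 there and gave 4.10, 3.46 and 3.69, and it turned 673 higher and 1128 lower DEGs into 1357 and 747. In 3DF vs. 2DC it turned 437 higher and 583 lower DEGs, with the median at 0.19, into 649 and 475. At 4 to 43 counts a 2D library for DRD1 and 3 to 54 for CST7, counting error limits how well the size of their changes is known. The replicate block changed no other call of the 3 genes, and outside 3DF_50 vs. 2DC_L no comparison had deviations of same-numbered libraries that correlated by over 0.1 in every pair (0.397, 0.062 and 0.093 in 2DC vs. 2DC_L). In 3DF vs. 2DF the block ended the call of GPRC5A.

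The changes of low genes shrank with limma on log2(FPKM + 1), to 1.73 for DRD1 in 3DF vs. 2DC, 1.498 in 3DF vs. 2DF and 0.23 in 2DF vs. 2DC, and to 2.22 for CST7 in 3DF vs. 2DF, as adding 1 FPKM does by construction. With the library prefix as a block CST7 gave 3.48 in 3DF vs. 2DC and 4.27 in 3DF vs. 2DF, where it and DRD1 (3.12) were no longer DEGs, and GPR162 turned to 0.43 in 2DF vs. 2DC. CST7 turned to -0.092 in 3DF vs. 3DF_50 with library size only (edgeR adjusted p = 0.839). The cause of these was not tested.

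Leaving out a library gave 4.35 to 6.07 for DRD1 and 2.19 to 3.41 for CST7 in 3DF vs. 2DC. In 3DF vs. 2DF it gave 2.79 to 3.87 for DRD1, 3.45 to 4.19 for GPR162 and 2.98 to 3.90 for CST7. In 2DF vs. 2DC it gave 0.92 to 2.93 for DRD1 and -0.60 to 0.15 for GPR162, with 0.063 without 2DC replicate 1. In 3DF vs. 3DF_50 it gave -0.12 to 0.33 for CST7. In 2DC vs. 2DC_L it gave -1.58 to 0.14 for DRD1, with 0.061 and 0.054 among them, -0.12 to 0.39 for GPR162, and 0.032 to 1.26 for CST7. A filter at a mean of 1 CPM dropped DRD1 or CST7 from some comparisons, and CST7 in 2DF vs. 2DC passed the count filter in 5 of 6 fits without a library.

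Counts of DEGs with limma on log2(FPKM + 1) were 527 in 3DF vs. 2DC, 267 in 3DF vs. 2DF, 296 in 2DF vs. 2DC, 2 in 3DF vs. 3DF_50 and 945 in 3DF_50 vs. 2DC_L. With the prefix as a block they were 4 in 3DF vs. 2DF, 16 in 2DF vs. 2DC and 10 in 3DF vs. 3DF_50. The 60 DEGs of 3DF vs. 3DF_50 became 202 with DESeq2, 155 with no filter, 196 with all 5 conditions and 5 with limma on log2(FPKM + 0.1). Without a library they ranged from 0 to 77 there (0 without 3DF_50 replicate 1 or 2, with 1847 and 1491 genes at an unadjusted p under 0.05, and 4 without 3DF replicate 3), and from 410 to 670 in 2DF vs. 2DC.

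With log2(FPKM + 0.1) r was 0.945 for DRD1 and GPR162, 0.849 for DRD1 and CST7 and 0.925 for GPR162 and CST7, and Spearman's rho was 0.832, 0.696 and 0.811. Of the 5 genes most like each, DRD1 kept 3 and CST7 3 with log2(FPKM + 0.1), and DRD1 kept 2, GPR162 2 and CST7 1 with Spearman's rho. Without a library DRD1 kept 2 to 5, GPR162 3 to 5 and CST7 3 to 5. With no limit on the fold change, the DEGs in 3DF vs. 2DC, the 3 genes included, became 8 of 49 fitted in the cyclic AMP list and 2 of 12 in desensitisation. They became 8 of 26 among orphan receptors, 2 of 4 among cystatins and 2 of 10 among cathepsins, beside 15.4% of all genes.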
